A study of Mus musculus with 6 samples.

Results

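The MHC class II genes beside the edited Psmb8 locus were examined in CD8+ T cells of mice whose Psmb8 gene had been altered. The members were taken by symbol from the deposited table, 10 of 78275 genes listed there. They were H2-Aa, H2-Ab1, H2-Eb1, H2-DMa, H2-DMb1, H2-DMb2, H2-Oa and H2-Ob, 8 genes of the MHC region on chromosome 17, and Cd74 on chromosome 18 and Ciita on chromosome 16, which serve the same pathway and are not linked to Psmb8. Mature CD8+ T cells, sorted as TCRβ-high and CD4-, were taken from 3 WT C57BL/6 mice and 3 BIT mice for total RNA sequencing, with 1 library per mouse. BIT mice are homozygous for an allele in which sequence of Psmb11, encoding the thymoproteasome subunit β5t, was placed at the translation start of Psmb8, encoding the immunoproteasome subunit β5i. The labels describe all 6 mice as males of 9 to 10 weeks and name lymph nodes as the tissue, while the extraction protocol names lymph nodes and spleens. The study used 1 BIT line unless it stated otherwise, and a line cannot be told apart here from the allele itself.

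MHC class II molecules are heterodimers of an α and a β chain that display peptides from endosomes to CD4+ T cells. They are made in large amounts by B cells, dendritic cells, macrophages and thymic epithelial cells, whereas resting mouse T cells are known to make little or none. H2-Aa and H2-Ab1 encode the chains of the I-A molecule and H2-Eb1 the β chain of I-E. The α chain gene of I-E, H2-Ea, is not functional in C57BL/6 mice. Cd74 encodes the invariant chain that fills the groove during assembly, H2-DMa with H2-DMb1 or H2-DMb2 encodes the H2-M molecule that exchanges the remaining fragment for peptides, and H2-Oa and H2-Ob encode H2-O, which restrains H2-M. Ciita encodes the transactivator that switches these genes on together. It binds no DNA itself and acts through factors held on a shared promoter module of an X box and a Y box.

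The promoters of the chromosome 17 members are shown because the module is the sequence that ties them to one regulator. The 250 bases before the start of each canonical transcript were read from GRCm39 and searched on both strands for an X box core, written GNNACNNAT, and for a Y box, ATTGG, the reverse of a CCAAT box. The letters were chosen after the sequences were seen, and the motifs do not overlap in the stretches below. The core was found in 21.8% and the Y box in 36.5% of 21770 promoters of protein-coding genes, and a core followed by a Y box 10 to 30 bases later in 108 of them, or 0.496%. This arrangement was present in 4 of the 10 members, H2-Ab1, H2-Eb1, H2-DMa and H2-Ob, with gaps of 23, 23, 24 and 21 bases. Each 60-base stretch runs 5′ to 3′ on the strand of its gene, with the X box core and the Y box in capitals. The stretches lie at chr17:34482106-34482165, chr17:34524732-34524791, chr17:34354471-34354530 and chr17:34457772-34457831 (all + strand), in the order printed.
H2-Ab1: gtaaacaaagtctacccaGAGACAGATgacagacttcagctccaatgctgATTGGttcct
H2-Eb1: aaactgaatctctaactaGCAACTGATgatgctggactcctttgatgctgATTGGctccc
H2-DMa: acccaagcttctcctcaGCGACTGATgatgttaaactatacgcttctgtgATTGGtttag
H2-Ob: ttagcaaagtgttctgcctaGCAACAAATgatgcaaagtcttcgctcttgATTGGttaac

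H2-DMb2 (chr17:34364083-34364142, + strand) and H2-Aa (chr17:34506836-34506895, - strand) held the Y box, in capitals, without these core letters before it.
H2-DMb2: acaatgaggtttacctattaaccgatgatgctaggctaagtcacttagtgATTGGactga
H2-Aa: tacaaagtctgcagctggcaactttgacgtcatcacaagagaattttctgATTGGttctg

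A match here is a description of letters and not of bound factors. Over the 10 members, the core was in 6 promoters and the Y box in 7. H2-Oa held the core alone, and neither motif was found in this window of H2-DMb1 or Ciita. H2-Eb2, a class II gene of the region that is not a member, held the arrangement with a gap of 23 bases.

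The libraries held between 37467678 and 52922675 counts, so that 3 counts, the limit that a count of 0 allows, corresponded to between 0.0567 and 0.0801 CPM, the counts scaled to a common library total. This limit covers counting error only. Psmb8, the targeted gene, had 10790, 10345 and 8024 counts in WT replicates 1 to 3 and 73, 59 and 60 in BIT replicates 1 to 3. Psmb11 had 0 counts in each WT library and 1926, 1754 and 1226 in the BIT libraries, as the genotype labels of all 6 libraries state. WT replicate 3 went against its label of male: it had 66626 counts of Xist and 0 of 4 Y-linked genes, whereas the other libraries had at most 125 of Xist and at least 8474 Y-linked counts. The summed level, the counts of members and the members' fold changes are therefore also given without it. The sorted population matched its label by its own markers. Cd8a was at 791 ± 45.9 CPM in WT and 769.5 ± 1.48 in BIT (SD, n = 3), Cd8b1 at 1072 ± 31.2 and 1162 ± 91.5, and Cd3e, a T cell receptor component, at 963 ± 34.7 and 1022 ± 42.7.

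All 10 members were measurable in these CD8+ T cell libraries, and all 10 had lower mean levels in BIT than in WT mice. The summed level of the 10 genes, in CPM, was 189.7, 250.4 and 243 in WT replicates 1 to 3 and 165.3, 158.9 and 153.2 in the BIT replicates. The WT libraries were spread more widely, with replicate 1 nearest to the BIT libraries, and the groups did not overlap. The ratio of the means was -0.52 on the log2 scale, and -0.47 without WT replicate 3. In a bulk library, fewer cells of a type that makes class II molecules and less class II RNA per cell cannot be told apart.

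No single member passed the test. In the limma-voom fit across 16105 genes, 0 of 10 members were past an adjusted p of 0.05 (Benjamini-Hochberg over all genes), where 22 genes, or 0.137% of those tested, were. At an unadjusted limma p below 0.05, 7 of the 10 were lower in BIT, against 4.32% of all genes tested that were lower at that level. The members' fold changes had a median of -0.59 on the log2 scale, against 0.01 over all genes. All 10 were below 0, against 47.7% of genes tested. In 5 of 10 members, H2-Aa, H2-Ab1, H2-Oa, H2-Ob and Ciita, every BIT library was below every WT library in CPM, which was so for 6.69% of genes tested, and the exact permutation p of each was 0.1, the smallest that 3 against 3 allows. The members share regulation and libraries and are not independent of each other, so the count of 10 is not a count of separate observations. Without WT replicate 3, 8 members were lower at an unadjusted limma p below 0.05, against 6.43% of the 16502 genes then tested. In that fit 0 members passed the adjustment, against 37 genes (0.224%), and the members' median was -0.65. edgeR's quasi-likelihood test called 0 members at an adjusted p below 0.05 and 14 genes in all (0.0869%). DESeq2 called 3 members, among 125 genes (0.94% of the 13292 to which it gave an adjusted p).

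**Figure D1:**
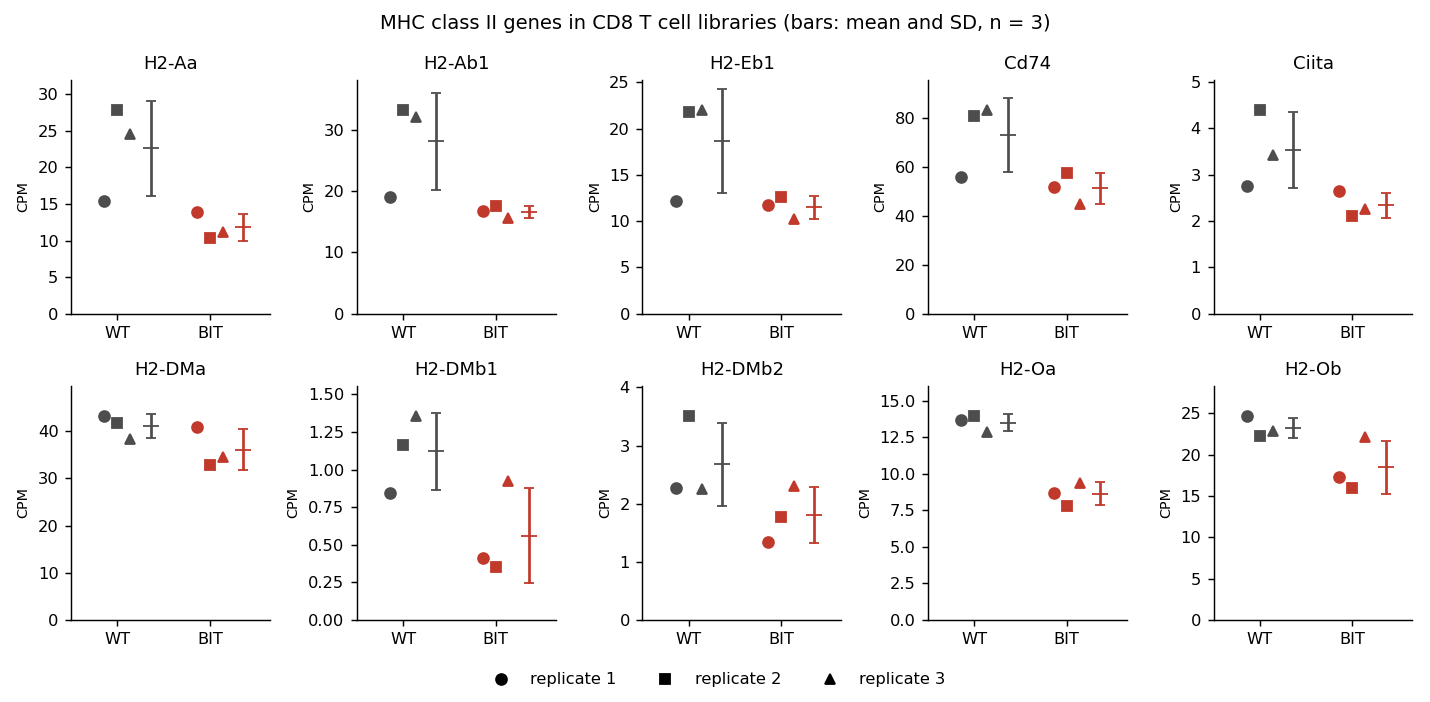
CPM of each MHC class II member (vertical axes, each from 0) in 3 WT and 3 BIT libraries, with the mean and SD beside the points and replicate numbers as symbols. The H2-Oa libraries form separate groups, 12.9 to 13.9 CPM in WT and 7.82 to 9.37 in BIT, whereas the WT replicate 1 point of H2-Aa, H2-Ab1, H2-Eb1 and Cd74 lies near the BIT points.

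The I-A and I-E chains, which form the surface molecules, were lower in BIT by 38.3% to 47.7% of their WT means, with 0 of the 3 past the adjusted threshold. H2-Aa (ENSMUSG00000036594, chr17:34493404-34506798, - strand) was at 15.4, 27.8 and 24.6 CPM in WT replicates 1 to 3 and at 13.9, 10.4 and 11.1 in BIT replicates 1 to 3. WT replicates 2 and 3 were well above all BIT libraries, and WT replicate 1 was above them by little. The BIT mean was 47.7% below the WT mean, 11.8 ± 1.87 against 22.6 ± 6.44 CPM (SD, n = 3), with a log2 fold change of -0.88 (SE 0.255, limma-voom adjusted p = 0.478).

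H2-Ab1 (ENSMUSG00000073421, chr17:34476663-34488393, + strand) was likewise lowest in replicate 1 among the WT libraries. Its levels were 19.0, 33.2 and 32.1 CPM in WT and 16.7, 17.5 and 15.6 in BIT, so the BIT mice varied little and again only WT replicate 1 came near them. The log2 fold change was -0.73 (SE 0.227, limma-voom adjusted p = 0.508), and the BIT mean was 40.9% below the WT mean. H2-Eb1 (ENSMUSG00000060586, chr17:34504236-34535648, + strand) was at 12.2, 21.8 and 22.0 CPM in WT and 11.7, 12.7 and 10.2 in BIT. Here WT replicate 1 lay between the BIT libraries, and the log2 fold change was -0.63 (SE 0.253, limma-voom adjusted p = 0.554).

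Ratios between the chains of the surface molecules did not separate the groups. The ratio of H2-Eb1 to H2-Ab1 in CPM per kb of exon was 0.654 ± 0.0207 in WT and 0.685 ± 0.0346 in BIT (SD, n = 3), and that of H2-Ab1 to H2-Aa was 2.08 ± 0.0994 and 2.38 ± 0.406. The exact two-sided permutation p was 0.3 for each ratio. Exons of H2-Aa and H2-Eb1 share 118 bases on opposite strands, 2.75% and 4.55% of their exon lengths, and the strand setting of the counting is not given in the sources used here. H2-Ea, the α chain of I-E, had 0 counts in all 6 libraries. H2-Eb2, a further β chain gene of the region, was measured at 0.865 ± 0.331 CPM in WT and 0.502 ± 0.0770 in BIT (log2 fold change -0.54, SE 0.488, limma-voom adjusted p = 0.779).

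Among the chaperones of peptide loading, the H2-O genes varied less among WT libraries than the I-A and I-E genes, relative to their means, which was not so among BIT libraries. H2-Oa (ENSMUSG00000024334, chr17:34311314-34314328, + strand) was at 13.7, 13.9 and 12.9 CPM in WT and 8.69, 7.82 and 9.37 in BIT. All 3 WT libraries, replicate 1 included, lay well above all 3 BIT libraries. The BIT mean was 36.1% below the WT mean, with a log2 fold change of -0.64 (SE 0.133), the smallest unadjusted limma p of the members, 0.000992, and an adjusted p of 0.248. Of its exon bases, 25.9% are also covered by the lncRNA gene BC051537 on the opposite strand, which itself was at 0.881 ± 0.170 CPM in WT and 0.557 ± 0.225 in BIT. H2-Oa was also called by DESeq2, at an adjusted p of 0.00886, and without WT replicate 3 its log2 fold change was -0.73 (limma-voom adjusted p = 0.099).

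H2-Ob (ENSMUSG00000041538, chr17:34457836-34473388, + strand), the β chain of H2-O, was at 24.6, 22.2 and 22.9 CPM in WT and 17.3, 16.0 and 22.1 in BIT. BIT replicate 3 nearly reached the lowest WT library, and the log2 fold change was -0.36 (SE 0.121, limma-voom adjusted p = 0.531). The ratio of H2-Ob to H2-Oa per kb of exon was 0.485 ± 0.0316 in WT and 0.599 ± 0.0562 in BIT (SD, n = 3), with every BIT library above every WT library. The exact permutation p of this ratio was 0.1, the smallest possible here, and was not adjusted for the several pair ratios examined. The groups overlapped for the ratios of H2-DMa to H2-DMb2 (exact permutation p = 0.5) and of Cd74 to H2-Ab1 (0.2). They also overlapped for the ratios of H2-DMa and of H2-Ob to H2-Ab1 (0.3 each).

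H2-DMa (ENSMUSG00000037649, chr17:34338515-34358958, + strand) differed least. It was at 43.2, 41.8 and 38.3 CPM in WT and 41.0, 32.8 and 34.6 in BIT, and BIT replicate 1 lay within the WT range. The log2 fold change was -0.23 (SE 0.123, limma-voom adjusted p = 0.644). Its exons share 510 bases, 11.8% of their length, with Brd2 on the opposite strand.

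The genes of the partner β chain, H2-DMb1 (ENSMUSG00000079547, chr17:34372046-34379204, + strand) and H2-DMb2 (ENSMUSG00000037548, chr17:34362197-34370529, + strand), lie next to each other and are close copies. Their canonical transcripts are identical at 90.5% of 1280 aligned bases, and 11.3% of the 100-base windows of H2-DMb1 recur in H2-DMb2. The estimated counts of each gene were not whole, yet their sum was whole in all 6 libraries (within 0.005), so reads were divided between these genes. H2-DMb1 was at 0.847, 1.17 and 1.35 CPM in WT and 0.409, 0.350 and 0.922 in BIT, and H2-DMb2 at 2.27, 3.50 and 2.25 in WT and 1.33, 1.77 and 2.31 in BIT. The groups overlapped for both genes, in each case through BIT replicate 3. Taken separately, the log2 fold changes were -0.89 (SE 0.324) and -0.49 (SE 0.314), which are uncertain because of the division. The sum does not depend on it, and was 165, 236 and 144 counts in WT and 78, 89 and 121 in BIT, with a log2 fold change of -0.63 (SE 0.261, limma-voom adjusted p = 0.56).

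Of the members not linked to Psmb8, Cd74 had the highest level of the 10 members. It was at 55.8, 80.7 and 83.2 CPM in WT and 51.7, 57.5 and 44.8 in BIT. As with the I-A and I-E genes, WT replicate 1 was low, here below BIT replicate 2. The BIT mean was 29.9% below the WT mean, with a log2 fold change of -0.55 (SE 0.178, limma-voom adjusted p = 0.511).

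Ciita (ENSMUSG00000022504, chr16:10297923-10347694, + strand) was at 2.76, 4.39 and 3.43 CPM in WT and 2.64, 2.12 and 2.27 in BIT. The groups did not overlap, but the lowest WT and the highest BIT library differed by little, and with counts between 85 and 222 per library the log2 fold change of -0.49 had an SE of 0.285 (limma-voom adjusted p = 0.669). Exons of Ciita share 633 bases, 5.73% of their length, with the protein-coding gene Dexi on the opposite strand. The unlinked members thus had fold changes within the range of the linked ones, -0.89 to -0.23. Without WT replicate 3, the log2 fold change was -0.85 for H2-Aa, -0.65 for H2-Ab1, -0.55 for H2-Eb1, -0.31 for H2-DMa, -0.94 for H2-DMb1 and -0.76 for H2-DMb2. It was -0.41 for H2-Ob, -0.49 for Cd74 and -0.65 for Ciita, and each of these 9 had a limma-voom adjusted p between 0.322 and 0.452.

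Per kb of exon, the order of the mean levels in WT was Cd74 (29.1 CPM per kb), H2-Ab1 (10.9), H2-DMa (9.49), H2-Oa (8.84), H2-Eb1 (7.19), H2-Aa (5.26), H2-Ob (4.28), H2-DMb2 (1.43), H2-DMb1 (0.668) and Ciita (0.319). Neighbours in this order from H2-Ab1 to H2-Ob had overlapping means ± SD, whereas Cd74 stood above them and H2-DMb2, H2-DMb1 and Ciita each stood below the gene before. In BIT mice H2-DMa (8.34) came before H2-Ab1 (6.46), and H2-Ob (3.40) before H2-Aa (2.76). Exon lengths are those of all annotated exons of a gene merged, which lowers this value for a gene with long alternative exons.

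Whether the genes beside Psmb8 differed from unlinked genes of the same pathway was asked directly by dividing each member by Cd74 within each library. These log2 ratios do not depend on the library total. For H2-Aa the ratio was -1.86, -1.54 and -1.76 in WT and -1.89, -2.46 and -2.01 in BIT, a difference of -0.40 (exact permutation p = 0.1, the smallest possible, adjusted p = 0.72 over 9 ratios). It was the only member of the 9 whose groups did not overlap in this ratio, although WT replicate 1 and BIT replicate 1 were nearly equal, and the difference was -0.23 without BIT replicate 2. The differences were -0.22 for H2-Ab1, -0.15 for H2-Eb1 and for H2-Oa, -0.07 for H2-DMb2 and for Ciita, and -0.59 for H2-DMb1, which was -0.24 without BIT replicate 2 and -1.11 without BIT replicate 3. They were 0.31 for H2-DMa and 0.15 for H2-Ob. The exact permutation p of these 8 was between 0.2 and 0.9, and the adjusted p between 0.72 and 0.9. No linked member passed this test relative to Cd74, which with 3 mice per group cannot give a p below 0.1 and does not show that the ratios were alike.

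**Figure D2:**
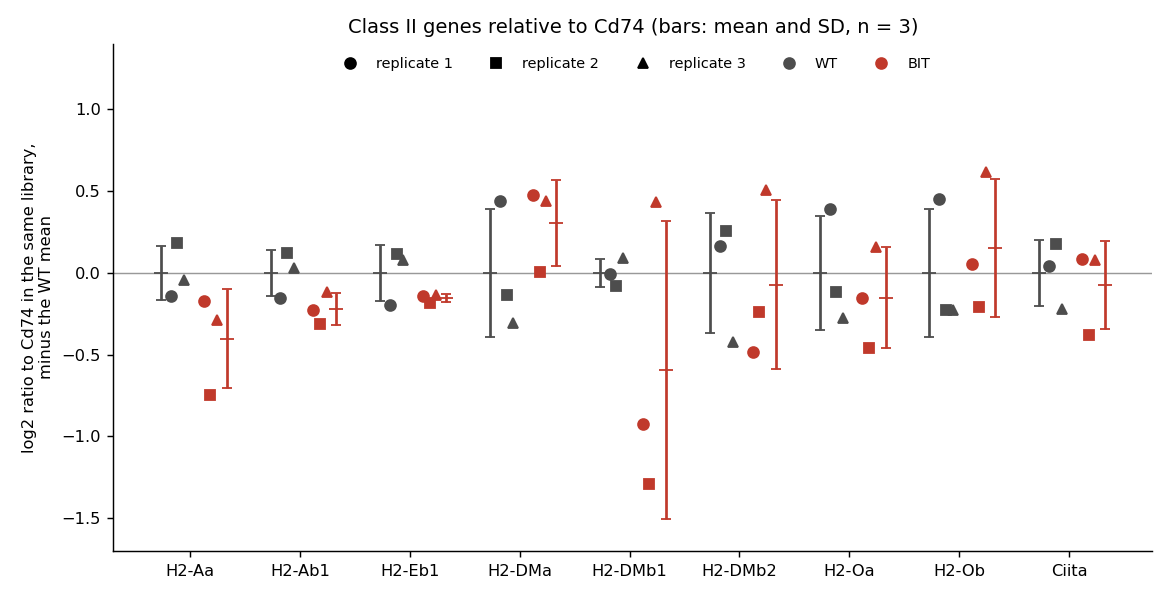
Level of 8 linked members and of Ciita relative to Cd74 in the same library, as a log2 ratio with the WT mean of each gene set to 0 (vertical axis), for 3 WT and 3 BIT libraries with mean and SD. WT and BIT points overlap for each gene except H2-Aa, and the H2-DMb1 points of BIT spread the most.

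Over the whole window of 250 kb, the genes around Psmb8 that are not members were split between the directions. Of 57 other annotated genes within 250 kb of Psmb8, 23 were tested, 10 had a fold change below 0 and 13 above, and 0 passed an adjusted p of 0.05, with 1 at an unadjusted limma p below 0.05 (H2-K2, log2 fold change -0.33, adjusted p = 0.553). Hsd17b8, with the next smallest p, had -0.17 (27.4 ± 1.59 CPM in WT, 24.7 ± 1.73 in BIT, adjusted p = 0.686). The median log2 fold change of the 23 was 0.02, against -0.64 for the 8 class II members on chromosome 17. The split was not even among the tested genes that lie from H2-Oa to H2-Eb1. There BC051537 (-0.50), Gm50336 (-0.34), Psmb9 (-0.12), Gm50335 (-0.10) and Brd2 (-0.09) were below 0, and Tap1 (0.01) and Tap2 (0.12) above. All other fold changes above 0 belonged to genes farther from Psmb8 than H2-Oa. Of the genes tested, the 3 nearest to Psmb8 are Tap1 and Tap2, encoding the peptide transporter of the class I pathway, and Psmb9, encoding the immunoproteasome subunit β1i.

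Tap1, 0.5 kb from Psmb8, was at 161 ± 13.9 CPM in WT and 168 ± 9.01 in BIT (log2 fold change 0.01, limma-voom adjusted p = 0.989). Tap2, 2.1 kb away, was at 171.5 ± 16.3 and 195 ± 15.8 (0.12, adjusted p = 0.748), and Psmb9, 10.0 kb away, at 71.6 ± 2.38 and 68.2 ± 4.16 (-0.12, adjusted p = 0.761). The class II members start 37.4 kb (H2-Ob) from Psmb8 and reach 102.4 kb (H2-Oa). The nearest on each side, H2-Ob and H2-DMb1, had log2 fold changes of -0.36 and -0.89, and the farthest, H2-Eb1 and H2-Oa, -0.63 and -0.64. Brd2, a chromatin reader 74.9 kb away that lies between H2-Oa and H2-DMa, was at 307 ± 24.4 and 302 ± 6.70 CPM (-0.09, adjusted p = 0.753).

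**Figure D3:**
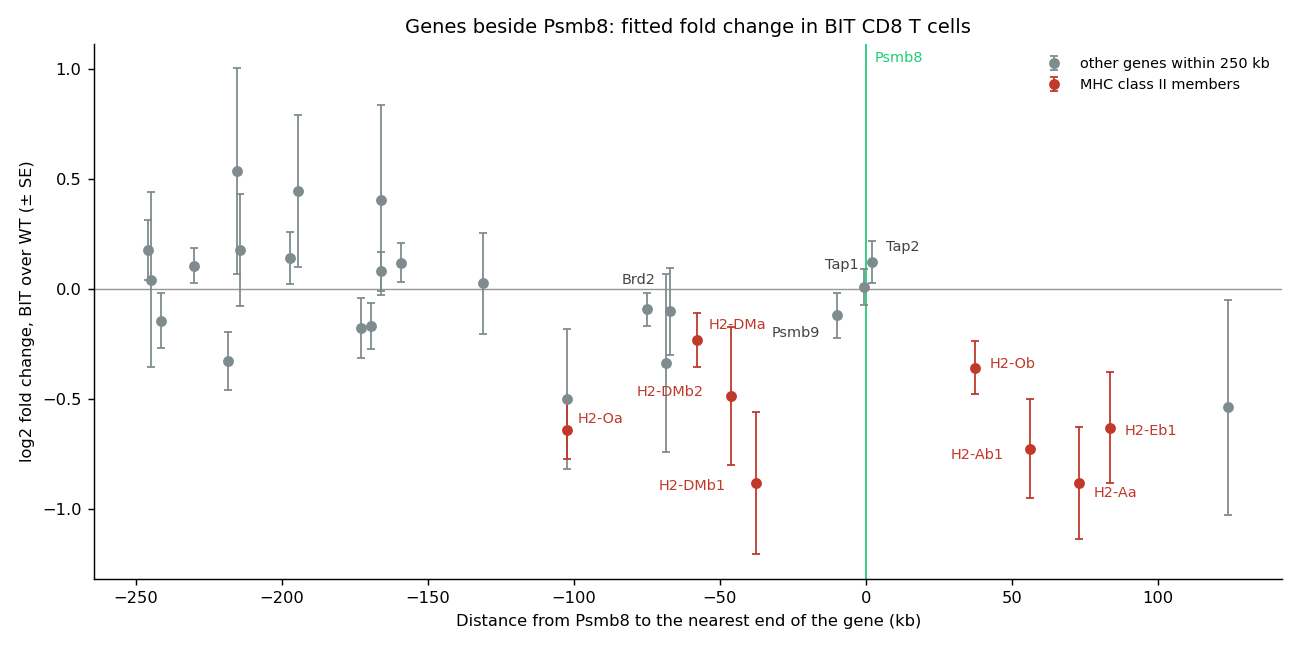
Log2 fold change (BIT over WT, limma-voom, vertical axis) with its SE for the genes tested within 250 kb of Psmb8, by distance in kb from Psmb8 to the nearest end of the gene (horizontal axis). The 8 MHC class II members lie at -0.23 or lower on both sides of Psmb8, and Tap1, Tap2, Psmb9 and Brd2 lie between -0.12 and 0.12.

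The factors known to act on class II promoters were split between the directions too. Of 13 regulators tested, among them the Rfx and Nfy subunits that bind the X and Y boxes, 7 had a fold change below 0 and 6 above, the median was -0.01, and 0 passed. Kat2b, a histone acetyltransferase, had -0.22 (limma-voom adjusted p = 0.630), and Creb1, a factor of the X box region, 0.15 (adjusted p = 0.640). Of 9 genes of interferon-γ signalling, which induces Ciita in many cell types, 4 were below 0 and 5 above, with a median of 0.01 and 0 passing. Their summed level was higher in every BIT library, 2338 to 2588 CPM in WT and 2804 to 2960 in BIT (0.21 on the log2 scale), with Jak1 the most abundant at 1172 ± 108 and 1386 ± 14.9. The receptor chains pointed in opposite directions, Ifngr1 at 0.41 (141 ± 28.8 CPM in WT, 194 ± 18.8 in BIT, adjusted p = 0.503) and Ifngr2 at -0.29 (20.6 ± 1.37 and 16.95 ± 1.91, adjusted p = 0.559). Of 11 genes for class II peptide processing and trafficking, 6 were below 0 and 5 above, with a median of -0.09 and 0 passing. The protease genes Ctsd and Ctsh had 0.16 (adjusted p = 0.608) and -0.69 (adjusted p = 0.669), and T cells express several genes of this list for other uses. The summed level of the 11 was 599 to 625 CPM in WT and 639 to 737 in BIT. The larger part of this sum was Ctsd (266 ± 17.7 CPM in WT, 309 ± 10.5 in BIT) and Ctss (189 ± 5.3 and 226 ± 38.5). The sum was thus higher in every BIT library although the median fold change of the list was below 0.

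Markers of cells that make class II molecules were detected in these libraries. Of 18 B cell markers, 17 had a fold change below 0, against 47.7% of all genes tested. Their median was -0.27 and 0 were past an adjusted p of 0.05. Several of the 17 lay near 0, among them Ighm (-0.075) and Igkc (-0.045). None of the 18 was at 0 counts in any library. Their summed level was 407 to 436 CPM in WT and 395 to 425 in BIT, of which Ighm alone, at 309 ± 5.49 and 312 ± 23.4, was the larger part, followed by Igkc at 21.8 ± 7.59 and 20.3 ± 2.26. A sum without Ighm, Ighd and Igkc was chosen after the values were seen. It was 72.5, 90.2 and 70.9 CPM in WT replicates 1 to 3 and 61.3, 69.5 and 58.5 in the BIT replicates. The ratio of its means was -0.30 on the log2 scale. Its groups did not overlap, whereas those of the full sum did, and WT replicate 3 was its lowest WT library. Pou2af1, a coactivator of B cells, was at 18.4 ± 0.482 and 15.2 ± 1.64 CPM (log2 fold change -0.29, limma-voom adjusted p = 0.539), and Ebf1, a transcription factor that sets B cell identity, at 2.08 ± 0.617 and 1.29 ± 0.151 (-0.54, adjusted p = 0.702).

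Of 11 monocyte and macrophage markers, 9 were tested, all 9 were below 0, the median was -0.50 and 0 passed. Their summed level was 20.3, 28.5 and 28.8 CPM in WT and 13.99, 14.5 and 19.0 in BIT. WT replicate 1 was the lowest of its group, as in the class II sum, and the groups did not overlap. C1qb and C1qa, complement genes of tissue macrophages, had -1.07 (2.64 ± 0.720 and 1.14 ± 0.123 CPM, adjusted p = 0.538) and -0.68 (adjusted p = 0.547). The most abundant were Lyz2, at 4.96 ± 1.05 and 3.35 ± 0.366 CPM, Csf1r, at 4.66 ± 1.25 and 3.13 ± 0.831, and C1qc, at 2.67 ± 0.371 and 1.75 ± 0.667.

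Of 10 dendritic cell markers, 7 were tested, 6 were below 0, the median was -0.73 and 0 passed. Fscn1, an actin bundler of mature dendritic cells, had -1.71 (2.75 ± 0.672 and 0.765 ± 0.215 CPM, adjusted p = 0.385), and Xcr1, a chemokine receptor of cross-presenting cells, -0.96 (1.72 ± 0.839 and 0.795 ± 0.489, adjusted p = 0.613). Their summed level was 9.14 to 30.4 CPM in WT and 6.33 to 11.2 in BIT, with the highest value in WT replicate 3 through Itgax (20.6 CPM there, 2.91 and 3.58 in the other WT libraries). Siglech had 5, 8 and 5 counts in WT replicates 1 to 3, close to the limit of 3 counts, and 0 in all 3 BIT libraries. Clec10a was at 0 in 5 of the 6 libraries.

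The part of these cells in the class II values was not tested. Of the other markers, 2 of 5 plasma cell genes were tested, with Mzb1 at -1.15 (0.604 ± 0.160 and 0.220 ± 0.0707 CPM, adjusted p = 0.535), Jchain at 0.66 (adjusted p = 0.699), Derl3 at most 10 counts and Tnfrsf17 at 0 in all 6 libraries. The sum was 1.42 to 3.81 CPM in WT and 1.90 to 2.76 in BIT. Krt5, Krt8 and Pdpn, 3 of 6 markers of epithelium and stroma, were at 0 in all libraries, and the sum, 100 to 122 CPM in WT and 94.2 to 110 in BIT, was mostly Pecam1, which T cells also express, at 109 ± 11.1 and 101 ± 8.09 (log2 fold change -0.16, adjusted p = 0.630). Epcam was at 1.38 ± 0.281 and 1.46 ± 0.302 CPM, and Col1a1 at 0.190 ± 0.135 and 0.259 ± 0.0773 (adjusted p = 0.702). The NK cell markers Ncr1 and Klrb1c summed to 1.19 to 2.20 CPM in WT and 1.12 to 2.32 in BIT. Of 4 CD4+ T cell markers, Izumo1r, the folate receptor 4 gene of T cells, fell by 0.96 on the log2 scale (23.1 ± 2.33 and 11.8 ± 0.865 CPM, limma-voom adjusted p = 0.0399), a call that was lost with no filter on low counts (adjusted p = 0.0602), with a replicate block (0.0551) and in 5 of 6 fits with 1 library left out, where the adjusted p reached 0.277 without BIT replicate 2 and only the fit without WT replicate 3 kept it. Foxp3 was at 1.00 ± 0.233 and 0.568 ± 0.0815 CPM (adjusted p = 0.723), and Zbtb7b at 2.54 ± 1.34 and 2.57 ± 0.612 (adjusted p = 0.843). Cd4 itself was at 0.546 ± 0.153 and 0.388 ± 0.250 CPM (log2 fold change -0.46, adjusted p = 0.836). The sum of the 4 markers was 25.2 to 31.1 CPM in WT and 15.2 to 15.7 in BIT. Izumo1r was the larger part of this sum, which therefore mostly repeats that gene. The 8 CD8+ T cell markers summed to 4407 to 4715 CPM in WT and 4554 to 4904 in BIT, with a median log2 fold change of 0.02 and 0 passing. Those with the smallest unadjusted p were Cd3g at -0.34 and Zap70 at 0.29 (adjusted p = 0.531 for each).

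**Figure D4:**
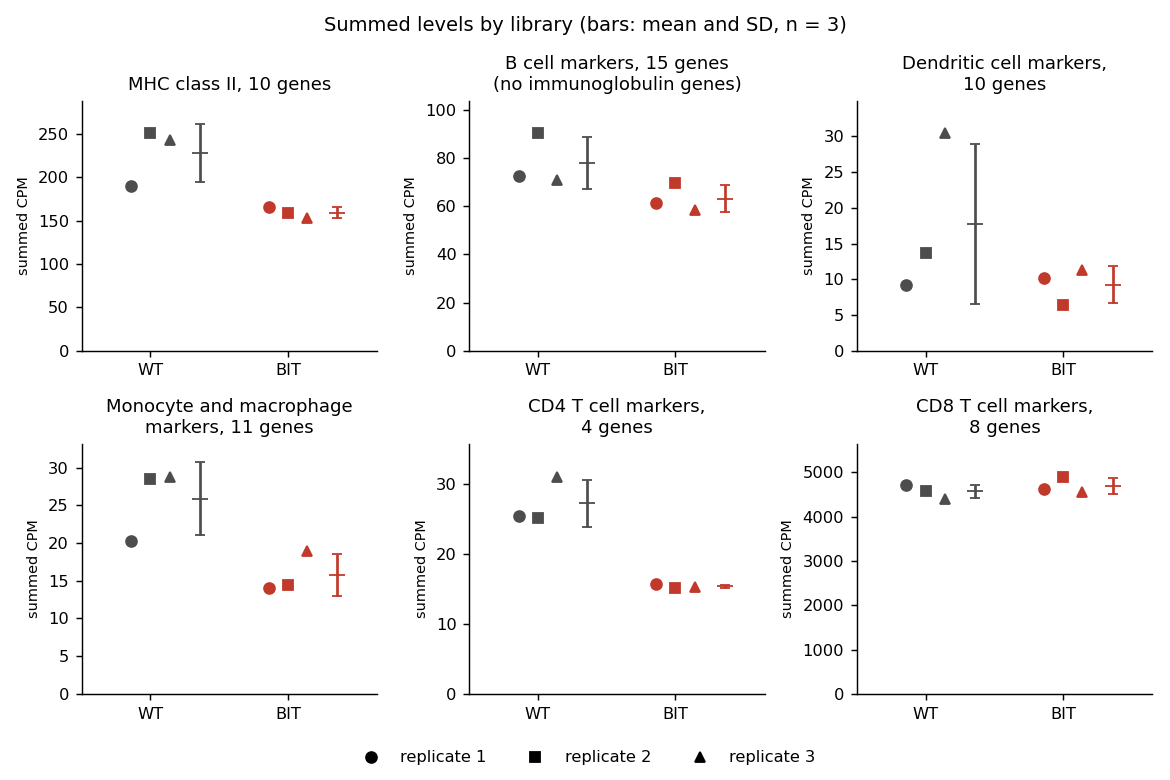
Summed CPM per library (vertical axes, each from 0) of the 10 MHC class II members and of 5 marker lists, for 3 WT and 3 BIT libraries with mean and SD. The B cell panel holds 15 genes, without Ighm, Ighd and Igkc, a choice made after the values were seen. The class II sum and the B cell, monocyte and macrophage, and CD4+ T cell sums are lower in each BIT library than in each WT library. WT replicate 1 is the lowest WT library in the class II, dendritic cell, and monocyte and macrophage sums, and not in the other sums shown. The dendritic cell and CD8+ T cell sums overlap between the groups. Most of the CD4+ T cell sum is Izumo1r.

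From library to library, the I-A and I-E chains, Cd74 and Ciita followed the summed class II level most closely by Pearson's r. Pearson's r of log2 CPM with the summed level over the 6 libraries was 0.982 for H2-Aa, 0.981 for H2-Ab1, 0.955 for H2-Eb1, 0.946 for Ciita and 0.943 for Cd74, and 0.539 for H2-DMa and 0.540 for H2-Ob. H2-Oa was at 0.841, and by Spearman's rho it was level with H2-Eb1 and Cd74 (0.771 each). These are descriptions, since the members are part of the sum and the libraries are shared. WT and BIT libraries were pooled, and the sum was lower in every BIT library. The r values here, and the medians by list below, therefore also hold the difference between the groups and partly repeat the fold changes. Among 16095 genes that are not members, 147, or 0.913%, had an r of at least 0.9. The closest were Gm10156 (0.996), Shtn1 (0.992), Sugt1 (0.987), Gm6377, Oard1 and Apol7c (0.986 each), Enthd1 (0.985), Gm43868 (0.977), Rpl14-ps1 (0.975) and 1110059G10Rik (0.974), none of which is in a marker list. Apol7c, at 4.80 CPM in WT and 1.69 in BIT, and Shtn1, at 1.45 and 0.566, were among these, as was Sugt1, at 91.1 and 81.7. By list, the median r was 0.721 for monocyte and macrophage markers, 0.558 for B cell markers, 0.400 for dendritic cell markers and -0.360 for CD8+ T cell markers. It was 0.453 for CD4+ T cell markers, 0.443 for plasma cell markers and 0.423 for the processing and trafficking genes, each above the dendritic cell value. NK cell markers had 0.098, epithelium and stroma markers -0.386, the regulators -0.445 and the interferon-γ genes -0.527. The median over all genes compared was 0.002.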

How the data were processed

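The deposited table holds estimated counts per gene, which the authors made from stranded, rRNA-depleted total RNA libraries with Cutadapt 1.18, STAR 2.7.0f and RSEM 1.3.1 (versions per the submitters' processing notes) on GRCm39 with Gencode M38. The strand setting of the counting is not given in the sources used here. The 6 libraries were assigned to groups by their labels, and the numbers of the replicates were not found to pair WT and BIT mice. Expected counts were rounded, and the normalization and test that the study's methods name were run with limma 3.58.1 in R 4.3.3 (voom on quantile-normalized values, then lmFit and eBayes), after filterByExpr of edgeR 4.0.16, which kept 16105 of 78275 genes and all 10 members. The rounding and this filter are not from the study. Quantile normalization and CPM are relative scales and cannot show a shift common to most genes. CPM were taken on the table's totals, and folds are fitted values with voom's prior count of 0.5. Genes were called at a Benjamini-Hochberg adjusted p below 0.05. Single ratios were compared by two-sided exact permutation tests. Alternatives were TMM, edgeR's quasi-likelihood test, DESeq2 1.42.0, other filters, a replicate block, leaving out each mouse, and replicates 1 and 2 alone. Positions are from Gencode M39, which holds 78263 of the identifiers. The fits were also run on simulated data, with changes larger than those of the members, which gives no measure of the power to call the members.

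The members, the gene lists and the tests were chosen with earlier results of these data known. The text names all 10 members, Psmb8 and Psmb11, the genes of each other list that were called or had the 2 smallest unadjusted p, the 3 most abundant genes of each marker list, Psmb9, Tap1, Tap2 and Brd2, and the 10 genes closest to the summed level. BC051537, Gm50335, Gm50336, Cd4, Jak1, Ctss, Xist and Siglech, Clec10a and other markers at 0 were named after their values were seen. Dexi was named for its overlap with Ciita. The mice were separate animals of each group.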

Additional observations from a re-analysis of the deposited data

How the results depend on the processing

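Over 14 alternative settings, all 131 fold changes of members were below 0 (that of the summed H2-DMb1 and H2-DMb2 counts under both genes), with 0 reversed and 3 that passed an adjusted p of 0.05, all by DESeq2 (H2-Aa 0.0136, H2-Ab1 0.0431, H2-Oa 0.00886). Members lower at an unadjusted p below 0.05 numbered 4 to 8 when 1 library was left out, 4 without BIT replicate 2. Without WT replicate 2 the members' median log2 fold change was -0.43, the nearest to 0 of all settings. H2-Aa and H2-Oa were at an unadjusted p below 0.05 in 13 of 13 alternatives, Ciita in 1. Genes called over the whole table, 22 in the fit reported, were 125 with DESeq2, 14 with edgeR's quasi-likelihood test, 71 with replicates 1 and 2 alone, and 1 (without WT replicate 1) to 37 (without WT replicate 3) with 1 library left out. DESeq2 also called 1 interferon-γ gene and 1 dendritic cell marker. The 1 CD4+ T cell marker called, Izumo1r, was lost with no filter on low counts and with the replicate block (0 called in each), and in 5 of 6 fits with 1 library left out (0 to 1 called). Replicate numbers were checked for pairing: deviations of same-numbered libraries correlated at 0.139, 0.0255 and 0.332 for replicates 1, 2 and 3, and not every library correlated best with its own number. With the block, 0 members passed the adjustment, 7 were at an unadjusted p below 0.05, and 21 genes were called. With 1 library left out, differences relative to Cd74 that lay near 0 changed sign, ranging from -0.362 to 0.135 for H2-DMb2 (0.011 and 0.056 without WT replicates 1 and 2, 0.135 and 0.011 without BIT replicates 1 and 2), from -0.307 to 0.045 for H2-Oa (0.045 without WT replicate 1, 0.004 without BIT replicate 2), from -0.181 to 0.084 for Ciita (0.018 and 0.084 without WT or BIT replicate 2) and from -0.078 (without BIT replicate 3) to 0.380 for H2-Ob, which was at -0.192 with replicates 1 and 2 alone. The difference of H2-Aa ranged from -0.518 to -0.231 and that of H2-DMb1 from -1.109 to -0.244. The cause of these moves was not tested. With 3 mice per group, the exact test of a ratio cannot go below 0.1, and the counts of H2-DMb1, H2-DMb2 and Ciita limit their precision.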
